A study of Mus musculus with 12 samples.

Results

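Mature miRNAs in the basolateral amygdala of mice that received extinction training were compared with those of mice that did not. The extinction-trained side held 6 libraries, 3 of the fear memory extinction group (E) and 3 of the retrieval-extinction group (RE, replicates 3 to 5), and the other side held 6 libraries, 3 of the control group (C) and 3 of the memory formation group (F), so that all 12 small RNA libraries of the series entered. All 1060 distinct mature miRNAs of the raw tag count sheet were members, 753 of them annotated and 307 predicted by the authors, and 388 annotated and 43 predicted ones passed the filter on low counts and were tested. The mice were male C57BL/6J of 10 weeks, 1 mouse for each library by the study's account. The F, E and RE mice had heard tones paired with foot shocks, and the C mice went through the same session without shocks. On the following day the E mice heard the tone many times without shock in a second context, and the RE mice heard it once as a reminder and then received the same extinction. C and F tissue was taken shortly after conditioning and E and RE tissue shortly after the last extinction session, so extinction and the time since conditioning cannot be told apart here. The reference side also mixes shocked (F) and unshocked (C) mice, while every extinction-trained mouse had been shocked.

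miRNAs are short RNAs cut from hairpin precursors, 1 arm or both of which are loaded into Argonaute proteins. Bases 2 to 8, the seed, pair with sites in mRNAs and lower their translation or stability, and miRNAs with the same seed share most of their predicted sites. The basolateral amygdala stores the association between a cue and a shock, and extinction forms an inhibitory memory there and in connected regions, in which activity-dependent transcription and translation take part. Several miRNAs, miR-34a, miR-128 and miR-182 among them, have been studied in fear learning in rodents.

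The mature sequences below belong to the miRNAs around which the results turn, as listed by RefSeq on build GRCm38.p6 (340 of the 388 annotated miRNAs tested were placed there), with the seed in capitals. The muscle-type and oligodendrocyte-type miRNAs, miR-21a and miR-34a, which had higher estimates in the extinction-trained libraries, come first. The miRNAs with lower estimates follow. In the main test of the 12 libraries given below, none of these differences passed adjustment across all miRNAs.
miR-206-3p: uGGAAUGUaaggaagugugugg
miR-219a-2-3p: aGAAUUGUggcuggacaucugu
miR-219a-5p: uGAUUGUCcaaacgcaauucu
miR-338-3p: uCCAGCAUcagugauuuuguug
miR-21a-5p: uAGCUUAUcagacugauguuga
miR-34a-5p: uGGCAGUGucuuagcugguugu
miR-7a-5p: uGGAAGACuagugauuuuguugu
miR-137-3p: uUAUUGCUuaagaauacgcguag
miR-376b-3p: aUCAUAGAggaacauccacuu
miR-369-5p: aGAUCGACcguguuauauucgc
miR-335-5p: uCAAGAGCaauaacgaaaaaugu
These seeds all differ from each other. miR-338-3p and miR-7a-5p share a run of 13 bases in their 3' parts but not their seeds, and their levels differed between the sides in opposite directions. miR-206-3p shares its seed with miR-1a-3p, and miR-7a-5p shares its seed with miR-7b-5p.

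The listed counts summed to between 1093194 (RE replicate 3) and 2353896 (F replicate 3) per library. Levels are given as CPM, tag counts per 1e+06 counts of the library after TMM scaling. In 4 libraries, 1 from each group (E replicate 2, RE replicate 4, C replicate 2 and F replicate 1), the make-up of the miRNA pool stood apart: a principal component analysis placed them between 12.1 and 15.4 on its leading axis (63.8% of variance) and the other 8 between -8.50 and -5.53. Each group holds 1 such library, so the split is balanced over the comparison, but it set most of the spread. The common dispersion of the counts was 0.184 over all 12 libraries, 0.0294 when a term for the library set was added and 0.0204 in the 8 libraries alone. This split was known from earlier results of these data, and what it stands for was not tested. The submitters' design note calls the profiles retinal, whereas the samples are labelled amygdala. The neuronal miR-9-5p stood at 22622 to 31399 CPM in every library and miR-124-3p at 683 to 1329 CPM. The 3 members of the miR-183 cluster, which is abundant in photoreceptors, summed to 48.8 to 571 CPM. Which tissue these levels speak for was not tested, and the labels were followed.

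No miRNA was called at an adjusted p under 0.05 by edgeR's quasi-likelihood test (0.0% of those tested; smallest adjusted p = 0.999). At an unadjusted p under 0.05 there were 15 miRNAs (3.48% of those tested), 9 higher and 6 lower in the extinction-trained libraries. DESeq2 and limma also called none after adjustment, with 20 and 15 miRNAs at an unadjusted p under 0.05. Of all miRNAs tested 213 were higher and 218 lower, with a median log2 fold change of -0.00. The CPM of the 6 extinction-trained libraries overlapped those of the other 6 for every miRNA tested. In the exact permutation test over all splits of 6 against 6 libraries, 22 miRNAs had a two-sided p under 0.05 and none an adjusted p under 0.7, where the smallest p the design allows is 0.00216. The differences below are therefore described by their size, error and libraries, and none of them passed the test across all miRNAs.

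Once a library-set term was fitted, 71 miRNAs had an unadjusted p under 0.05 (16.5%), 41 of them higher (9.51%) and 30 lower (6.96%), and the smallest adjusted p was 0.111 with edgeR. DESeq2 with the same term, which was not a planned fit, called 19 of the 230 miRNAs for which it gave an adjusted p (8.26%), where edgeR called none. All 20 miRNAs with the smallest p over the 12 libraries also had an unadjusted p under 0.05 with the term. Both fits use the same 12 libraries and the term lowered the dispersion, so this is no separate check of them. These 20, of which 13 were higher and 7 lower and 3 are predicted, are plotted with their errors.

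**Figure D1:**
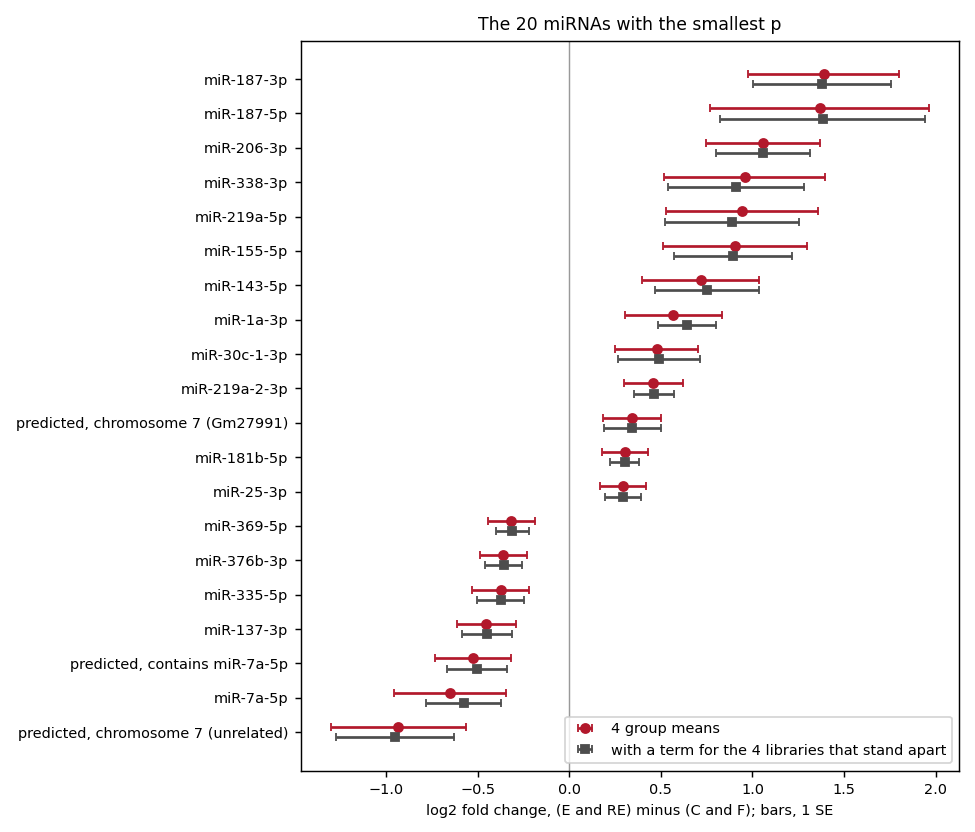
Log2 fold change of the extinction-trained (E and RE) over the other (C and F) libraries for the 20 miRNAs with the smallest p, with 1 SE, from the fit of 4 group means (circles) and with the term for the library set (squares). The estimates run from 1.39 for miR-187-3p to -0.93 for a predicted miRNA on chromosome 7 and hardly differ between the fits.

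miR-187-3p showed the largest difference of any miRNA tested. Its level was 30.1, 90.8 and 42.6 CPM in the E libraries and 48.4, 16.9 and 29.2 CPM in the RE libraries, against 37.5, 12.9 and 14.5 CPM in the C libraries and 12.3, 6.35 and 15.4 CPM in the F libraries. Every extinction-trained library lay above the median of the other side, but C replicate 1 lay within the extinction-trained range. The log2 fold change was 1.39 (SE 0.41, unadjusted p = 0.00642, exact permutation p = 0.0173), and it ranged from 1.09 without E replicate 2 to 1.71 without C replicate 1. This is the miRNA that edgeR called once the filter on low counts was dropped (log2 fold change 1.40, adjusted p = 0.014 over 1060 miRNAs). With the filter edgeR's smallest adjusted p was 0.999, so the call depends on this setting, and why was not tested. The study had itself singled out miR-187-3p from these libraries, so its place here is not independent evidence.

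The other arm of the same hairpin, miR-187-5p, was far less abundant and differed by a similar amount. It had 3.09, 19.1 and 5.61 CPM in E and 15.5, 2.31 and 10.5 CPM in RE, against 8.34, 2.39 and 3.45 CPM in C and 4.52, 2.38 and 1.44 CPM in F. The log2 fold change was 1.37 (SE 0.60, unadjusted p = 0.044), and it was 0.84 without E replicate 2, with an unadjusted p of 0.173. Both arms were highest in E replicate 2, next highest in RE replicate 3, and highest in C replicate 1 on the other side. miR-187-3p, miR-187-5p and miR-206-3p were the 3 miRNAs that had a log2 fold change of 1 or more and an unadjusted p under 0.05 (0.696% of those tested), and no miRNA passed these limits in the lower direction.

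miR-206-3p and miR-1a-3p were both higher after extinction. They are the miRNAs of skeletal and cardiac muscle, and miR-206 has also been studied in mouse brain as a repressor of Bdnf, the neurotrophin that extinction learning requires. miR-206-3p, from a hairpin at chr1:20679010-20679082 within the lincRNA Gm28653, had 20.1, 28.0 and 29.2 CPM in E and 57.1, 27.7 and 40.8 CPM in RE, against 26.4, 12.9 and 11.7 CPM in C and 9.05, 11.1 and 23.0 CPM in F. Only C replicate 1 and F replicate 3 reached the range of the extinction-trained libraries. This gave a log2 fold change of 1.06 (SE 0.31, unadjusted p = 0.00646, exact permutation p = 0.013), and it lay between 0.89 and 1.30 with any single library left out.

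miR-1a-3p had 1172, 1003 and 1249 CPM in E and 1111, 988 and 1270 CPM in RE, against 962, 468 and 823 CPM in C and 386, 760 and 1185 CPM in F. The extinction-trained libraries were close together and 5 of the other 6 lay below all of them, F replicate 3 being the exception. The fitted log2 difference was 0.57 (SE 0.27, unadjusted p = 0.0564; 0.37 without F replicate 1) and 0.64 (SE 0.16, unadjusted p = 0.00128) with the library-set term. Of the other muscle miRNAs, miR-133a-3p and miR-133b-3p averaged 0.542 and 0.322 CPM and were too low to test. A predicted miRNA that shares 21 bases with miR-133a-3p was 7.72 to 20.5 CPM in the extinction-trained libraries and 6.46 to 14.4 CPM in the others (log2 fold change 0.36, SE 0.30, unadjusted p = 0.255; 0.03 in the 8 libraries), with overlapping ranges.

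The oligodendrocyte-type miRNAs were higher in the extinction-trained libraries, all 3 of those tested (median log2 fold change 0.94, against -0.00 over all miRNAs). The median is the value of the scarce miR-219a-5p, and RE replicate 3 was the highest library for all 3. miR-219 and miR-338 promote the maturation of oligodendrocyte precursors, the cells that form myelin. A predicted miRNA of 21 bases whose sequence lies within miR-338-5p, tested apart from this list, was 471 to 863 CPM in the extinction-trained libraries and 437 to 599 CPM in the others (log2 fold change 0.25, SE 0.16, unadjusted p = 0.131). miR-219a-2-3p was the abundant one of the list, at 3711, 3624 and 3651 CPM in E and 5020, 3177 and 3541 CPM in RE, against 3507, 2940 and 3124 CPM in C and 1922, 2237 and 2963 CPM in F. Of the other side only C replicate 1 exceeded the lowest extinction-trained library. The log2 fold change was 0.46 (SE 0.16, unadjusted p = 0.0159), and 0.35 without RE replicate 3. The exact permutation p over the 12 libraries was 0.00433. DESeq2 with the library-set term gave an adjusted p of 0.0142, where edgeR with that term called no miRNA.

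The order of the groups for miR-219a-2-3p was RE, E, C and F, and no neighbouring groups in it had an unadjusted p under 0.05. E exceeded F by 0.63 (SE 0.23) and C by 0.20 (SE 0.23) on the log2 scale, and RE exceeded F by 0.72 (SE 0.23) and C by 0.29 (SE 0.23). F against C was -0.43 (SE 0.23, unadjusted p = 0.0881). Within the 4 libraries that stand apart, and again within the other 8, the extinction-trained libraries did not overlap the rest, which held for 2 miRNAs in this direction (0.464% of those tested, the other being miR-21a-5p).

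miR-219a-5p, the other arm of the same hairpin at chr2:29845631-29845727 and also made from a hairpin at chr17:34024983-34025092, had 7.72, 6.15 and 7.85 CPM in E and 13.5, 2.31 and 4.41 CPM in RE, against 3.48, 2.87 and 4.14 CPM in C and 2.59, 3.18 and 4.80 CPM in F. All E libraries lay above the C and F libraries, but RE replicate 4 was the lowest of the 12. Its log2 fold change was 0.94 (SE 0.41, unadjusted p = 0.0441), and 0.49 without RE replicate 3 (unadjusted p = 0.171). miR-338-3p, from an intron of Aatk at chr11:120014765-120014862, had 6.95, 4.10 and 10.1 CPM in E and 11.6, 2.31 and 6.06 CPM in RE, against 6.95, 4.31 and 4.14 CPM in C and 1.94, 3.97 and 1.44 CPM in F, a log2 fold change of 0.96 (SE 0.44, unadjusted p = 0.0526). Without RE replicate 3 miR-338-3p stood at 0.66. Both miR-219a-5p and miR-338-3p rest on few tags per library. In bulk tissue, fewer cells of a type and less RNA per cell cannot be told apart.

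**Figure D2:**
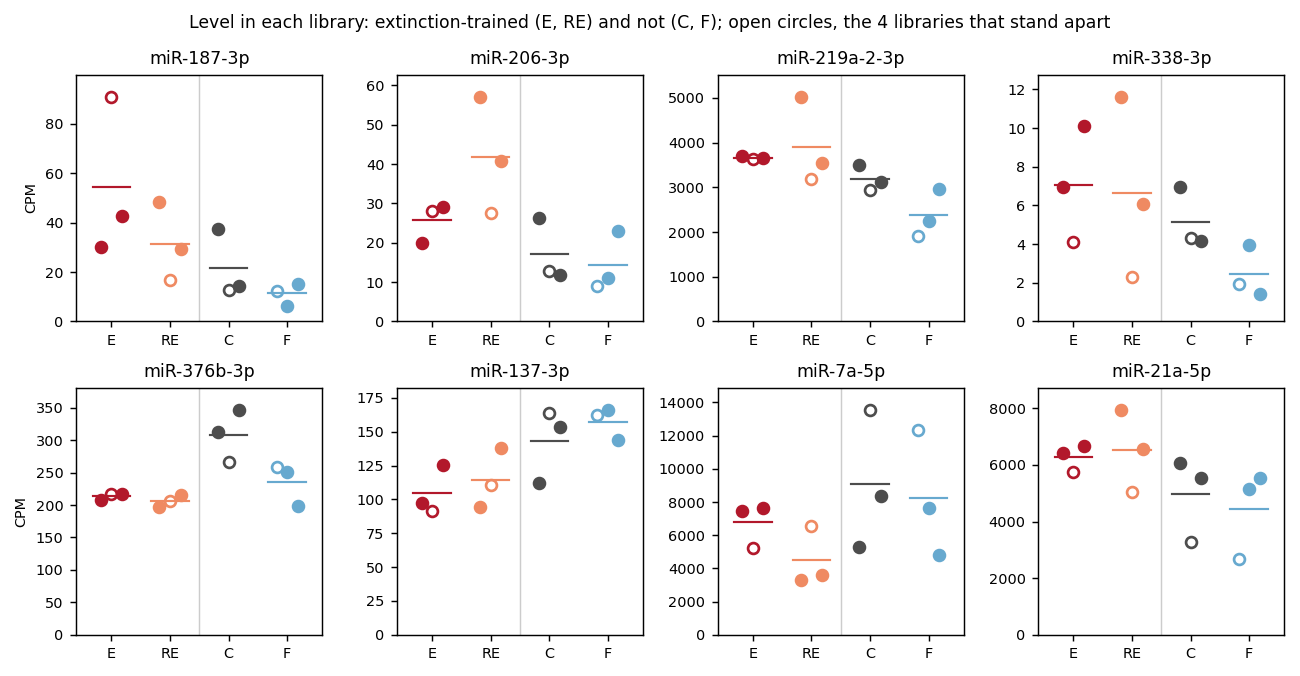
CPM of 8 miRNAs in each library, with E and RE left of the line and C and F right of it; bars are group means of 3 libraries and open circles the 4 libraries that stand apart (E replicate 2, RE replicate 4, C replicate 2 and F replicate 1). miR-376b-3p lies between 196 and 217 CPM in all extinction-trained libraries, and miR-21a-5p separates the sides among circles of the same kind but not over all 12.

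miR-21a-5p, a miRNA that rises in reactive glia and is abundant in most tissues, was chosen for description after its values were seen. It had 6435, 5751 and 6655 CPM in E and 7932, 5058 and 6558 CPM in RE, against 6071, 3270 and 5549 CPM in C and 2678, 5152 and 5531 CPM in F. The ranges met because the set-apart libraries RE replicate 4 and E replicate 2 lay below C replicate 1, while the set-apart libraries of C and F were the lowest of all. Over the 12 libraries the log2 fold change was 0.44 (SE 0.23, unadjusted p = 0.0748, and 0.27 without F replicate 1). With the library-set term it was 0.49 (SE 0.11, unadjusted p = 0.000622). DESeq2 with the term gave an adjusted p of 0.00894, where edgeR with the term called no miRNA. Its hairpin lies in Vmp1 at chr11:86584067-86584158.

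The miRNAs of the imprinted Dlk1-Dio3 region on chromosome 12, a cluster expressed from the maternal allele in neurons, were mostly lower after extinction, with a small median difference. Of 84 listed members, 66 were tested, and 52 of these (78.8%) were lower, with a median log2 fold change of -0.13 and a lowest value of -0.75 (SE 0.64) for the scarce miR-323-5p. Over all miRNAs 218 (50.6%) were lower, with a median of -0.00. In the 8 libraries without those that stand apart, 46 of the 64 members tested were lower (71.9%), against 53.0% of all miRNAs. The median was -0.18 for E and -0.10 for RE against C and F pooled, comparisons that share their C and F libraries, and -0.07 for F against C, where 39 of the 66 (59.1%) were lower, against 41.3% of all miRNAs. With the library-set term 12 of the 66 members had an unadjusted p under 0.05 in the lower direction, against 6.96% of all miRNAs tested, and 1 in the higher direction, against 9.51%. The members share primary transcripts and libraries, so their number does not count as so many observations. The estimates of the most abundant members were near 0, miR-127-3p with a log2 fold change of -0.01 (SE 0.11) and miR-381-3p of -0.01 with a wide error (SE 0.57), and the summed CPM of the cluster was 104225 to 185207 in the extinction-trained libraries and 115838 to 201339 in the others.

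miR-376b-3p was the member with the smallest p. It had 208, 217 and 217 CPM in E and 196, 206 and 216 CPM in RE, against 312, 266 and 346 CPM in C and 259, 251 and 199 CPM in F. The extinction-trained libraries lay within a narrow band and all but F replicate 3 of the others lay above it. Its log2 fold change was -0.36 (SE 0.13, unadjusted p = 0.0168, exact permutation p = 0.013), and here C was the high group: F against C was -0.38 (SE 0.18, unadjusted p = 0.0567), E against C -0.53 (SE 0.18) and RE against F -0.20 (SE 0.18). Its other arm, miR-376b-5p, had a log2 fold change of -0.01 (SE 0.26). The hairpin lies at chr12:109723458-109723539.

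miR-369-5p, from the lincRNA Mirg at chr12:109743418-109743496, had 216, 210 and 201 CPM in E and 206, 238 and 206 CPM in RE, against 237, 281 and 240 CPM in C and 325, 275 and 233 CPM in F. Only RE replicate 4 reached into the range of the other side. Together the sides differed by -0.32 on the log2 scale (SE 0.13, unadjusted p = 0.034, exact permutation p = 0.00649), and the difference was -0.36 (SE 0.18) for RE against F and -0.27 (SE 0.18) for E against C. The more abundant arm, miR-369-3p, was lower by less, with a log2 fold change of -0.21 (SE 0.19; -0.09 without C replicate 2) and of -0.19 (SE 0.08) with the library-set term. miR-369-5p and miR-341-3p, a member hosted in the noncoding gene Rian, were the 2 miRNAs (0.464%) whose extinction-trained libraries lay below the rest both within the 4 libraries that stand apart and within the other 8. miR-341-3p was named after its values were seen. It ranged from 399 to 817 CPM with a median of 752 in the extinction-trained libraries. In the others it ranged from 502 to 951 CPM with a median of 840. Its log2 fold change was -0.23 (SE 0.26) over the 12 libraries and -0.24 (SE 0.08) with the term.

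miR-7a-5p and miR-7b-5p were lower after extinction. miR-7 is enriched in neuroendocrine and hypothalamic cells and is bound by the circular RNA Cdr1as in the brain. miR-7a-5p had 7487, 5245 and 7612 CPM in E and 3297, 6561 and 3594 CPM in RE, against 5308, 13530 and 8389 CPM in C and 12328, 7637 and 4834 CPM in F. All 6 extinction-trained libraries lay below the median of the other side, and the lowest were RE replicates 3 and 5. C replicate 1 and F replicate 3 lay within the extinction-trained range, and the set-apart C replicate 2 and F replicate 1 were the highest of all. The log2 fold change was -0.65 (SE 0.30, unadjusted p = 0.0558), and -0.45 without C replicate 2 (unadjusted p = 0.154 in edgeR's fit). With the library-set term it was -0.58 (SE 0.21, unadjusted p = 0.0149). Against C and F together it was -0.95 (SE 0.39) for RE and -0.35 (SE 0.38) for E.

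A predicted miRNA that contains the whole miR-7a-5p sequence and can share its tags had 8058 to 14511 CPM with a median of 10054 in the extinction-trained libraries and 11560 to 19912 CPM with a median of 15718 in the others (log2 fold change -0.53, SE 0.21, unadjusted p = 0.0273). miR-7b-5p, from another hairpin, had a log2 fold change of -0.65 (SE 0.34; -0.34 without C replicate 2), and the predicted form of the miR-7b-5p sequence one of -0.53 (SE 0.27). The other arms of the 2 miR-7a hairpins differed from each other: miR-7a-2-3p stood at -0.59 (SE 0.34; -0.32 without C replicate 2) and miR-7a-1-3p, cut from an intron of Hnrnpk, at 0.10 (SE 0.19). miR-375-3p, the third neuroendocrine miRNA, went the other way, with a log2 fold change of 0.61 (SE 0.37) that came from E (1.12, SE 0.44) rather than RE (0.11, SE 0.46), where E against RE was 1.00 (SE 0.53, unadjusted p = 0.0848).

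miR-137-3p, a neuronal miRNA that acts on synaptic and presynaptic genes and whose human locus is linked to schizophrenia, was lower after extinction. It had 97.3, 91.5 and 126 CPM in E and 94.8, 111 and 138 CPM in RE, against 112, 164 and 153 CPM in C and 162, 166 and 144 CPM in F. C replicate 1 was the one library of the other side within the extinction-trained range of 91.5 to 138 CPM. The log2 fold change was -0.45 (SE 0.16, unadjusted p = 0.0178, exact permutation p = 0.0108), and it was -0.45 (SE 0.23) for E against C and -0.46 (SE 0.23) for RE against F. The hairpin lies at chr3:118433857-118433929, and its other arm, miR-137-5p, was near the detection limit (0 to 12.3 CPM; log2 fold change -0.14, SE 0.58).

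miR-335-5p, cut from an intron of the imprinted gene Mest at chr6:30741299-30741396, was 297 to 384 CPM with a median of 348 in the extinction-trained libraries and 330 to 566 CPM with a median of 439 in the others. The log2 fold change was -0.38 (SE 0.16, unadjusted p = 0.0367) and nearly the same in E (-0.37, SE 0.20) and RE (-0.38, SE 0.20) against C and F. The other arm, miR-335-3p, stood at -0.23 (SE 0.14). A predicted miRNA on chromosome 7 that resembles no annotated one was 12.3 to 48.6 CPM in the extinction-trained libraries and 44.1 to 76.2 CPM in the others (log2 fold change -0.93, SE 0.37, unadjusted p = 0.0287), the largest difference in the lower direction.

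Among the other higher miRNAs of the 20 with the smallest p, miR-181b-5p and miR-25-3p were the abundant ones. miR-181b-5p, enriched in the forebrain, had 528.1, 678.3 and 515.5 CPM in E and 741.0, 718.0 and 668.5 CPM in RE, against 516.7, 558.3 and 483.5 CPM in C and 546.1, 469.2 and 526.3 CPM in F. The RE libraries and E replicate 2 were above all others, and E replicates 1 and 3 were not. The sides differed by 0.30 on the log2 scale (SE 0.12, unadjusted p = 0.0316), with 0.46 (SE 0.15) for RE and 0.15 (SE 0.15) for E against C and F. miR-25-3p, of the miR-106b-25 cluster in Mcm7, was 635 to 841 CPM with a median of 775 in the extinction-trained libraries and 562 to 697 CPM with a median of 587 in the others (log2 fold change 0.29, SE 0.13, unadjusted p = 0.04).

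miR-155-5p, a miRNA of activated immune cells including microglia, had 9.27, 4.78 and 10.7 CPM in E and 8.71, 6.15 and 6.06 CPM in RE, against 5.56, 1.92 and 4.14 CPM in C and 2.59, 2.38 and 7.20 CPM in F. Its log2 fold change was 0.91 (SE 0.39, unadjusted p = 0.0427). The other 5 leukocyte and microglial miRNAs had log2 fold changes from -0.38 for miR-142a-3p to -0.06 for miR-146a-5p, the last of which stood at 0.03 with the library-set term, and their list summed to 824 to 1153 CPM in the extinction-trained and 805 to 1392 CPM in the other libraries. miR-30c-1-3p, a low passenger strand, was 7.74 to 15.4 CPM in the extinction-trained libraries and 7.18 to 11.1 CPM in the others (log2 fold change 0.48, SE 0.22, unadjusted p = 0.058), while its abundant partner miR-30c-5p stood at 0.19 (SE 0.14; 0.09 without E replicate 2). A predicted miRNA within the snoRNA Gm27991 had a median of 27.2 CPM in the extinction-trained libraries and 22.8 CPM in the others, with overlapping ranges (log2 fold change 0.34, SE 0.16).

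miR-143 and miR-145 are made by smooth muscle cells and pericytes around vessels, and here the pooled difference lay in E. miR-143-5p had 23.9, 38.3 and 64.5 CPM in E and 16.4, 22.3 and 18.2 CPM in RE, against 31.3, 13.4 and 15.2 CPM in C and 9.05, 15.9 and 19.7 CPM in F. The pooled log2 fold change was 0.72 (SE 0.32, unadjusted p = 0.0463), made up of 1.30 (SE 0.37) for E and 0.14 (SE 0.39) for RE against C and F, and E exceeded RE by 1.15 (SE 0.45, unadjusted p = 0.0264). miR-143-3p showed the same pattern at 8847 to 26029 CPM in E and 4324 to 7630 CPM in RE, against 2706 to 13382 CPM in C and 3623 to 8727 CPM in F. For this arm E exceeded RE by 1.45 (SE 0.60, unadjusted p = 0.034). The study had itself reported miR-143-3p as lower in RE than in E from these libraries, so this is not independent evidence. miR-145a-5p was likewise higher in E than in RE, by 1.00 (SE 0.30, unadjusted p = 0.00668). Of the 20 miRNAs with the smallest pooled p, miR-143-5p was the one with an unadjusted p under 0.05 between E and RE, and none had one between F and C. Over all miRNAs tested, 10 had one between E and RE and 8 between F and C in edgeR's fit. None was called after adjustment in either comparison.

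Several of the remaining miRNAs that DESeq2 called with the library-set term had wide ranges over the 12 libraries. They are named because of those calls, after their values were seen. miR-34a-5p, a p53 target that has been tied to fear memory consolidation in the amygdala, had 232, 217 and 330 CPM in E and 593, 234 and 473 CPM in RE, against 265, 162 and 188 CPM in C and 97.6, 264 and 321 CPM in F. RE replicates 3 and 5 stood above all others, and the E libraries lay within the range of C and F except for E replicate 3. The log2 fold change was 0.63 (SE 0.32, unadjusted p = 0.0711, and 0.41 without F replicate 1). With the term it was 0.65 (SE 0.17, adjusted p = 0.0254 with DESeq2), where edgeR with the term called no miRNA.

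miR-193b-3p stood at 0.71 (SE 0.21) with the term, miR-30a-5p at 0.46 (SE 0.14) and its other arm miR-30a-3p at 0.39 (SE 0.11). Without the term miR-30a-5p stood at 0.43 and miR-30a-3p at 0.46. miR-487b-3p, of the Dlk1-Dio3 region, stood at -0.28 (SE 0.09) with the term and at -0.31 (SE 0.32) without it. For each of these miRNAs DESeq2 with the term gave an adjusted p of 0.0395 or 0.0397, and edgeR with the term an adjusted p between 0.164 and 0.176. miR-30a-5p illustrates the spread: it had 14276, 3900 and 12352 CPM in E and 11844, 3968 and 22831 CPM in RE, against 13016, 2564 and 12539 CPM in C and 2786, 9926 and 10476 CPM in F, and the set-apart library was the lowest of its group in all 4 groups. A predicted miRNA on chromosome 13 with no annotated relative was 217 to 793 CPM in the extinction-trained libraries and 129 to 526 CPM in the others. Its log2 fold change was 0.63 (SE 0.43) over the 12 libraries and 0.71 (SE 0.17) with the term.

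Whether both paradigms moved the same way was examined in comparisons that share no library. They come from the same fit of all 12 libraries, so their errors and p-values share its estimates of spread and are not independent. For E against C beside RE against F, 270 of the miRNAs tested (62.6%) had the same sign, with r = 0.23 across miRNAs. An unadjusted p under 0.05 was found for 7 miRNAs in E against C and for 9 in RE against F. miR-187-3p alone had one in both with the same sign, at 1.34 (SE 0.57) and 1.44 (SE 0.59). For E against F beside RE against C, which uses the same 12 libraries crossed, 215 miRNAs (49.9%) had the same sign, with r = -0.03. An unadjusted p under 0.05 was found for 16 miRNAs in E against F and for 24 in RE against C, and none had one in both with the same sign. With the library-set term, 28 of all miRNAs tested had an unadjusted p under 0.05 for E against C and 47 for RE against F. Of these, 6 had one in both with the same sign (miR-137-3p, miR-187-3p, miR-1a-3p, miR-21a-5p, miR-341-3p and the unrelated predicted miRNA on chromosome 13). In the crossed pair 50 had one for E against F and 78 for RE against C. Here 5 had one in both with the same sign (miR-193b-3p, miR-1a-3p, miR-206-3p, miR-21a-5p and the same predicted miRNA). Whether these overlaps exceed chance was not tested, so the miRNAs named are not taken as reproduced. The shares with the same sign were 65.0% and 48.5%. The correlations are across miRNAs, which are not independent, and no test was made of them. miR-206-3p stood at 0.60 (SE 0.44) for E against C and 1.51 (SE 0.45) for RE against F, and at 0.82 (SE 0.44) for E against F and 1.30 (SE 0.44) for RE against C. miR-7a-5p stood at -0.42 (SE 0.43) for E against C and -0.88 (SE 0.43) for RE against F, and at -0.29 (SE 0.43) for E against F and -1.02 (SE 0.43) for RE against C.

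**Figure D3:**
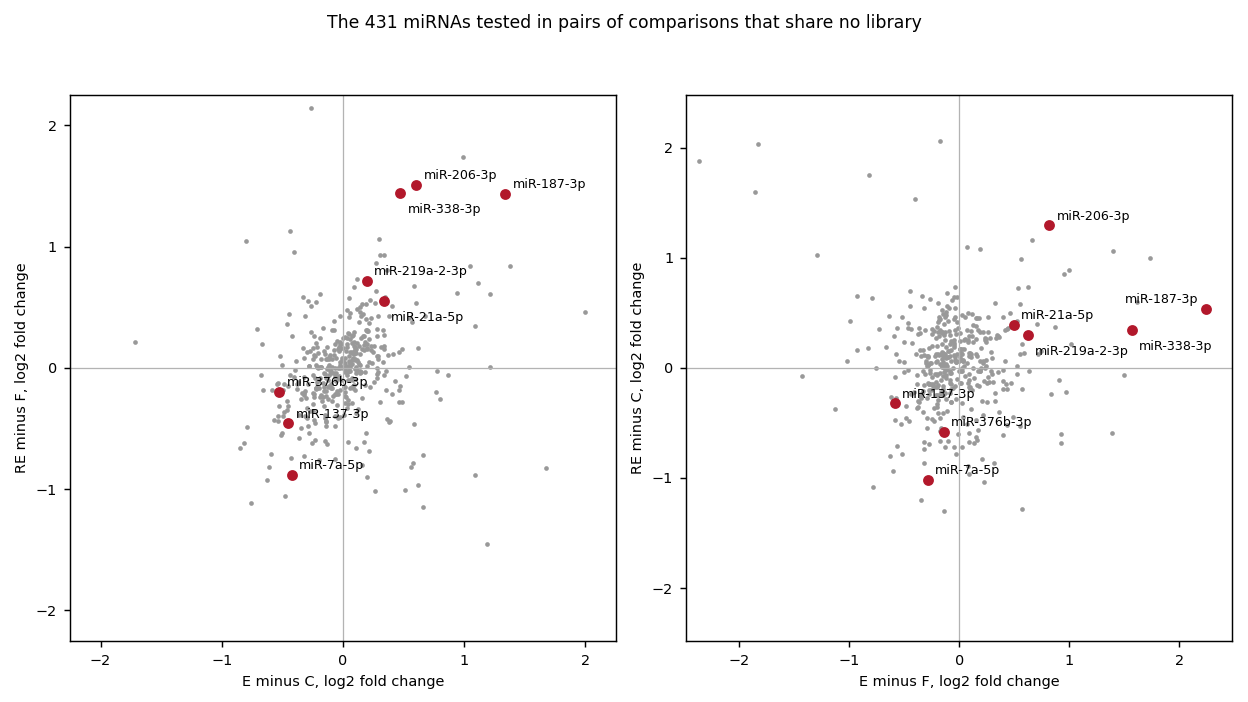
Log2 fold changes of the miRNAs tested in pairs of comparisons that have no library in common, with 8 miRNAs of the text in red. The left panel sets RE minus F against E minus C (62.6% of miRNAs with the same sign) and the right panel RE minus C against E minus F (49.9%).

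The sides were also compared within each library set. The difference between the sides computed in the 4 libraries that stand apart and that computed in the other 8 had the same sign for 266 miRNAs (61.7%), with r = 0.18 across miRNAs. With permutations restricted to swaps within each set (420 splits, smallest possible p 0.00476), 51 miRNAs had an exact two-sided p under 0.05 and the smallest adjusted p was 0.365. miR-219a-2-3p, miR-21a-5p, miR-369-5p and miR-341-3p reached that smallest p, as their libraries do not overlap within either set.

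The lists of neuronal, activity-regulated and memory-linked miRNAs had medians near 0, with members in both directions. Of 10 neuron-enriched miRNAs 5 were higher and 5 lower, with a median log2 fold change of -0.00, and all but miR-137-3p lay between -0.10 and 0.13. The abundant miR-128-3p, which has been linked to extinction in mice, had 43017 to 68115 CPM in the extinction-trained libraries and 39006 to 72842 CPM in the others (log2 fold change -0.10, SE 0.15), with -0.33 (SE 0.19) for E and 0.13 (SE 0.19) for RE against C and F. miR-132-3p, which CREB induces upon neuronal activity, stood at -0.02 (SE 0.13), and the 4 members of the miR-132/212 cluster had a median of -0.04. Of the 14 miRNAs of earlier fear memory reports 11 were tested, 4 higher and 7 lower (median -0.10), from -0.52 (SE 0.51) for miR-135a-5p to 1.11 (SE 0.71) for miR-92a-3p. With the library-set term miR-34a-5p was higher and miR-135a-5p and miR-19b-3p were lower at an unadjusted p under 0.05, 3 of 11 members against 16.5% of all miRNAs tested.

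The let-7 family, the most abundant in the table, was 8 higher and 1 lower of 9 over the 12 libraries (median 0.09), but 1 higher and 8 lower in the 8 libraries without those that stand apart (median -0.04). The Htr2c-intron miRNAs, which mark choroid plexus and serotonin 2C receptor expression, were lower for 5 of 6 (median -0.28), with a median of 0.05 for E and -0.57 for RE against C and F, comparisons that share their C and F libraries. Between E and RE themselves, 1 of the 6 had an unadjusted p under 0.05, miR-1298-3p, at 0.79 (SE 0.20, unadjusted p = 0.00266 in edgeR's fit). Of all miRNAs tested, 10 had one in that comparison. The miR-200 family of epithelia and olfactory neurons had a median of -0.13, with -0.51 for E and 0.38 for RE, and its sum ran from 75.8 to 258 CPM in the extinction-trained libraries and from 40.2 to 735 CPM in the others, F replicate 1 being the highest; F against C had a median of 2.70. The 2 endothelial miR-126a arms stood at 0.06 and 0.08. The 4 erythrocyte miRNAs were all higher over the 12 libraries (median 0.14; miR-451a 0.55, SE 0.43) and all lower in the 8 libraries (median -0.23). Whether any change in cell make-up took part in the differences above was not tested.

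**Figure D4:**
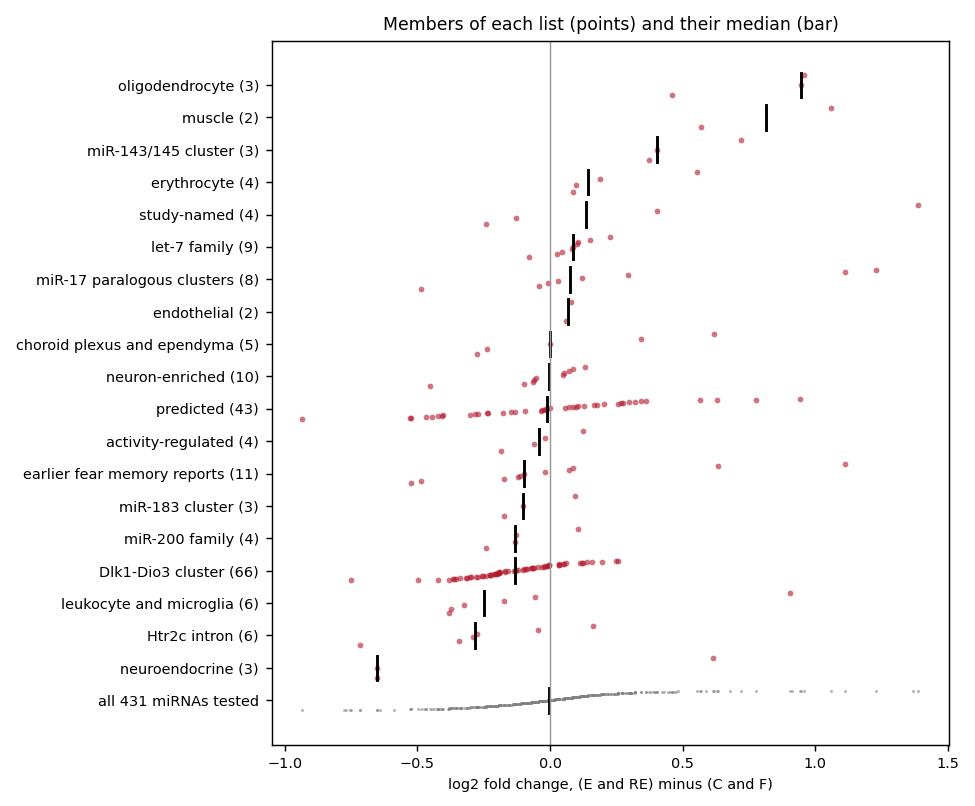
Log2 fold change of the extinction-trained (E and RE) over the other (C and F) libraries for the tested members of each list (points, with their number in parentheses) and the median of each list (bars), beside all miRNAs tested at the bottom. The oligodendrocyte list has the highest median (0.94) and the neuroendocrine list the lowest (-0.65), each from 3 miRNAs.

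miRNAs that share a seed, and the arms of 1 hairpin, gave a further description of the differences. Of the 127 hairpins with both arms tested, 88 had the same sign in both arms. Mature miRNAs made from several hairpins, such as miR-124 and miR-9, were counted for each, so the hairpins are not independent. The miR-25/32/92/363 seed family was higher in 5 of 5 members (median 0.29) and the 3p arms of miR-30a, miR-30d and miR-30e in 3 of 3 (0.31). The miR-30 guide family with miR-384-5p was higher in 5 of 6 (0.13). Lower in every member were miR-7a/7b (2 of 2, median -0.65), miR-135a/135b (2 of 2, -0.32) and miR-125a/125b/351 (3 of 3, -0.07), among others. Further families moved wholly in either direction and are not listed. Of all miRNAs tested, 49.4% were higher. In the miR-34/449 family miR-34a-5p stood at 0.63 (SE 0.32) and miR-449a-5p at 0.62 (SE 0.48), but miR-34c-5p at 0.00 (SE 0.33). Of the miR-25 family miR-25-3p alone had a small error: miR-92a-3p stood at 1.11 (SE 0.71) and miR-363-3p at 1.23 (SE 0.82), both highest in E replicate 2, with 26.0 and 27.3 CPM, while the abundant miR-92b-3p stood at 0.01 (SE 0.49). The miR-181 family was split, with 2 members higher and 2 lower (median 0.05).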

How the data were processed

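Small RNA libraries of 12 amygdala samples (3 for each of E, RE, C and F, grouped by their labels) were prepared and sequenced by a service company. Per the study's methods, reads were trimmed with Cutadapt, further miRNAs were predicted with miRDeep2 and reads were aligned to mouse precursors with Novoalign. CASAVA 1.8 and the human build hg38 appear in the submitters' processing notes, with no role given. The deposited table holds raw tag counts, not normalized, and a second deposited table the authors' normalized score, tags per 1e+06 rounded to whole numbers, used for limma alone. Of 1169 rows, 109 repeated another row's sequence and counts and were dropped, which left 1060 miRNAs.

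Counts were tested with edgeR 4.0.16 (R 4.3.3; TMM, filterByExpr with a minimum count of 10, quasi-likelihood test, Benjamini-Hochberg adjustment) on 4 group means, as the mean of E and RE minus the mean of C and F. CPM of the log-scale permutation tests carried an offset of 0.5. DESeq2 1.42.0, limma 3.58.1, other filters and scalings, a replicate block, each library left out and a library-set term (the 4 libraries apart) were the alternatives. Fits that joined the library-set term with DESeq2, pooled sides, other scalings or no filter were not planned beforehand. Exact permutation tests were two-sided. Fitting was tested on simulated data. Listed counts are miRNA tags only and carry counting error that no molecular identifiers limit. Loci and sequences are from RefSeq (GRCm38.p6).

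The miRNAs named are the 20 with the smallest p, those past a log2 fold change of 1 with p under 0.05, their other arms and members of lists. The comparison, members and lists were chosen with earlier results of these data known. The authors' own fold changes and p-values were not used.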

Additional observations from a re-analysis of the deposited data

Results flagged for a closer look

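In groups of 6 libraries, 1 library stood far from the others for 3 of the 62 groups examined, where chance gives about 1 in 20. miR-187-3p had 37.5 CPM in C replicate 1, with a gap to the next library of 0.711 of the range of the C and F libraries. miR-219a-2-3p had 5020 CPM in RE replicate 3, with a gap of 0.71 of the range of the E and RE libraries. miR-30c-1-3p had 7.74 CPM in RE replicate 3, the lowest of the E and RE libraries, with a gap of 0.70 of their range. Each gap was above Dixon's critical value for 6 libraries.

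E and RE differed at an unadjusted p under 0.05 for 4 miRNAs of the text, among them both arms of miR-143. Over all miRNAs tested, 10 had such a p between E and RE in edgeR's fit. None was called after adjustment, where the smallest adjusted p was 0.627. E exceeded RE by 1.155 on the log2 scale for miR-143-5p (SE 0.45, unadjusted p = 0.0264 in edgeR's fit) and by 1.454 for miR-143-3p (SE 0.60, unadjusted p = 0.034). For miR-145a-5p E exceeded RE by 0.997 (SE 0.30, unadjusted p = 0.00668), and for miR-1298-3p by 0.790 (SE 0.20, unadjusted p = 0.00266).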

How the results depend on the processing

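Among 31 miRNAs followed one by one, 747 of 761 log2 fold changes under the alternatives kept their direction and 14 reversed. miR-137-5p ranged from -0.48 to 0.13 with single libraries left out, miR-7a-1-3p from -0.032 to 0.20 and miR-376b-5p from -0.14 to 0.20. miR-376b-5p was also 0.016 without a filter, 0.030, 0.036 and 0.030 with limma (pseudocounts of 1 and 0.5, and no filter), 0.037 with the library-set term and 0.21 in the 8 libraries. The exact p within library sets fell under 0.05 for 5 more of them.

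No miRNA was called after adjustment except 1 without a filter on low counts. With the library-set term there were 19 calls with DESeq2, 23 without a filter, and 0 to 1 with single libraries left out (1 without RE replicate 3). The count at an unadjusted p under 0.05 was 30 without a filter, 71 with the library-set term, 42 in the 8 libraries and 9 to 29 with single libraries left out (9 without C replicate 3, E replicate 3, RE replicate 3 or RE replicate 5; 29 without RE replicate 4). The count past a log2 fold change of 1 and p under 0.05 in the higher direction was 11 without a filter, 0 at a mean count of at least 50, 1 in each limma fit, 7 in the 8 libraries and 1 to 5 with single libraries left out (1 without C replicate 3 or RE replicate 3, 5 without RE replicate 4), and with the term 7 without a filter and 0 to 6 (0 without E replicate 2, 6 without RE replicate 4). In the lower direction it was 3 without a filter, 1 in each limma fit and 0 to 3 with single libraries left out (3 without RE replicate 4), and with the term 3 without a filter and 0 to 2. The causes were not tested.

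Deviations of same-numbered samples correlated at 0.45 to 0.74 in 8 of 12 pairs and at -0.72 to -0.53 in the other 4, each with F replicate 1 or 2. These 4 pairs each join a library that stands apart with one that does not, and the 8 join libraries of the same set. The signs therefore follow the library sets and cannot decide whether equal numbers pair the samples. The numbers were not taken to pair them. With the replicate block 8 miRNAs had an unadjusted p under 0.05, 5 were past the limits in the higher and 1 in the lower direction, and 0 were called.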
